A study of Drosophila melanogaster with 8 samples.

Results

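Phototransduction is the chain of reactions by which a fly photoreceptor turns light into a change of membrane voltage. An opsin that has absorbed a photon activates a G protein, the G protein activates a phospholipase C, and cleavage of a membrane phosphoinositide opens cation channels, while arrestins bind the active opsin and end its signal. The machinery is packed into the rhabdomere, a stack of microvilli in each photoreceptor, and the genes for it are used mainly in photoreceptors. Each unit of the compound eye, the ommatidium, holds outer photoreceptors (R1 to R6) and the inner pair R7 and R8, and the inner pair comes in a pale and a yellow subtype that carry different opsins.

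The 10 genes described here are matched by name from this pathway, a rule that uses no measured value, although the pathway was picked with earlier results of these data known: the opsin genes ninaE, Rh3, Rh4, Rh5 and Rh6, the phospholipase C gene norpA, the channel gene trp, the scaffold gene inaD, and the arrestin genes Arr1 and Arr2. They are 10 of 14865 genes in the deposited count table, each name matched 1 gene, and all 10 were kept by the filter on low counts. The libraries are poly(A) RNA of whole Drosophila melanogaster at day 8 of adulthood, reared on food with 8% yeast and 9% sugar, from 5 controls and from 3 mutants of DHR39, a nuclear receptor encoded by Hr39. The deposited sample sheet calls the controls w1118, a laboratory stock that carries a deletion in the eye pigment transporter gene white, and the mutants DHR393.48. The control libraries are re-used from another series, the labels describe neither the lesion of the mutant allele nor the sex of the flies, and nothing says that replicates came from separate cultures, so the spread behind each p-value may be technical only. The study's title sets its question in male fertility.

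Library totals lay between 16072497 and 19935574 counts, and the 10 genes together took 0.684% to 0.823% of them. Hr39 itself, the check on the labels, was at 24.3, 26.5 and 30.1 CPM (counts scaled to a common library size) in DHR39 libraries against 33.8 to 39.9 CPM in controls, or -0.42 ± 0.10 as a log2 fold change (edgeR adjusted p = 0.0119). That call ended with library totals alone as the scale (edgeR adjusted p = 0.0592), without DHR39 replicate 1 (0.0515) and without DHR39 replicate 2 (0.0508). The white gene w, a non-member named for the w1118 background, was at 0.892 to 2.08 CPM in controls and 0.879 to 2.30 CPM in DHR39. Throughout, CPM are on the scale of trimmed means (TMM), means carry their SD over 5 controls or 3 mutants, and positive log2 fold changes (± SE) mean higher in DHR39. They come from the edgeR quasi-likelihood test, where an adjusted p under 0.05 is a call.

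None of the 10 genes was called by edgeR, against 17.3% of the 13506 genes tested, 6.58% higher and 10.7% lower in DHR39. The count at an unadjusted p under 0.05 was also 0, against 28.3% of all genes, and DESeq2 and limma voom called 0 as well. A fit with replicate names as a block and a fit with library totals alone as the scale each called 1 member, Rh5, described below. These fits called 19.1% and 22.4% of all tested genes. In no member were the CPM of the 3 DHR39 libraries clear of those of the 5 controls, which they were for 23.2% of tested genes. The fitted changes lay between -0.36 and 0.21 on the log2 scale, 3 above and 7 below 0, with a median of -0.045 beside -0.0043 for all tested genes. A missed threshold does not show that levels were equal. On the TMM scale, 95% intervals stayed within 1.5-fold in both directions for 9 of the 10 genes. The exception was Rh6, the least abundant member. These intervals rest on the same spread between libraries, which may be technical only.

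**Figure D1:**
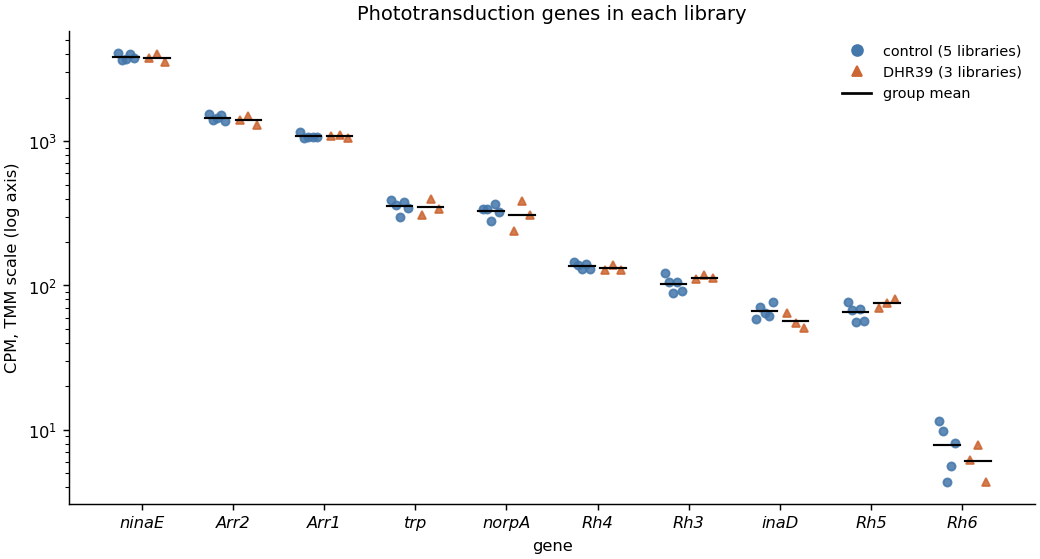
CPM on a log axis for each of the 10 genes, with control libraries as circles, DHR39 libraries as triangles and group means as black bars. From ninaE, at 3847 CPM in controls, to Rh6, at 7.90 CPM, the symbols of both groups overlap for every gene.

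The opsins come first. ninaE (FBgn0002940, 3R from 19886255 to 19888206, minus strand, on the BDGP6 assembly) encodes Rh1, the opsin of the outer photoreceptors R1 to R6, and is a defining marker of those cells. It was at 4092, 3659, 3719, 4021 and 3743 CPM in control replicates 1 to 5 and at 3782, 4003 and 3550 CPM in DHR39 replicates 1 to 3. The DHR39 values straddle the control range, with replicate 3 below every control. The log2 fold change was -0.026 ± 0.081 (edgeR adjusted p = 0.884), and its 95% interval ran from 0.868-fold to 1.11-fold. It had 60561 to 84476 reads per library, the most of any member. In these whole-fly libraries fewer photoreceptors and less RNA per photoreceptor cannot be told apart, here and for the other members. For genes below that are also used in other cells, the part of those cells cannot be told apart either.

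Rh3 and Rh4 encode the ultraviolet opsins of R7 cells, Rh3 in pale and Rh4 in yellow ommatidia. Rh3 (FBgn0003249, 3R from 20081060 to 20082450, minus strand, with a single exon block) was at 122, 106, 88.9, 106 and 91.9 CPM in controls and 111, 117 and 112 CPM in DHR39. The DHR39 libraries lay close together in the upper part of the control range, under control replicate 1 and above the other 4 controls. The log2 fold change of Rh3 was 0.14 ± 0.10 (edgeR adjusted p = 0.435). Rh4 (FBgn0003250, 3L from 16852527 to 16862517, minus strand), whose span encloses sina, sinah and CG13029 on the opposite strand without shared exons, was at 145, 138, 130, 141 and 130 CPM in controls and 128, 138 and 128 CPM in DHR39. For Rh4, DHR39 replicates 1 and 3 were just under the lowest control and replicate 2 was inside the range. The log2 fold change of Rh4 was -0.059 ± 0.077 (edgeR adjusted p = 0.696).

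Rh5 and Rh6 encode the blue and green opsins of R8 cells, Rh5 in pale and Rh6 in yellow ommatidia. Rh5 (FBgn0014019, 2L from 12008153 to 12009832, plus strand, on the arm that also holds Hr39) was at 76.8, 68.0, 56.04, 68.3 and 57.2 CPM in controls and 70.0, 75.1 and 80.7 CPM in DHR39. All DHR39 values exceeded 4 of the 5 controls, and DHR39 replicate 3 exceeded every control. Its log2 fold change was 0.21 ± 0.11 (edgeR adjusted p = 0.271). Each DHR39 library has the same replicate name as 1 control in the sample sheet. With these names as a block Rh5 rose, by 0.32 ± 0.092 (edgeR adjusted p = 0.0386), the only member called in that fit. There 19.1% of all tested genes were called, 7.90% higher and 11.2% lower. Control replicates 1 and 2, whose names no mutant shares, do not inform the difference in the block. Their loss and the pairing were not told apart in the larger value. Rh5 was also called with library totals alone as the scale, at 0.35 ± 0.11 (edgeR adjusted p = 0.0377), where 22.4% of all genes were called, 14.7% higher and 7.70% lower, and the median of all genes itself stood at 0.14. Over all alternatives the adjusted p of Rh5 ran from 0.0377 to 0.574.

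Rh6 (FBgn0019940, 3R from 15483158 to 15484699, plus strand) was the least abundant member and the most variable. It was at 11.5, 9.87, 4.34, 5.60 and 8.14 CPM in controls and 6.16, 7.87 and 4.34 CPM in DHR39, which lie inside the control range to rounding. Its counts were 73 to 200 reads per library. Its within-group SD was 0.54 on the log2 scale, against 0.054 to 0.23 for the other 9 genes. The log2 fold change of -0.36 ± 0.30 (edgeR adjusted p = 0.502) had a 95% interval from 0.494-fold to 1.23-fold, so a 2-fold fall lay within it. It was -0.17 without DHR39 replicate 3 or without control replicate 1 (-0.18) and -0.59 without DHR39 replicate 2. Its size thus rests on single libraries. With the block it was 0.039. Control replicates 1 and 2, the highest for Rh6, share no name with a mutant and do not inform the difference in that fit. Their loss and the pairing were not told apart in the change of sign.

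Because the opsin genes of a cell type are split between pale and yellow ommatidia, their ratio within a library does not depend on how libraries are scaled. Levels were divided by exon length for this. Rh3 made up 44.8%, 42.6%, 39.9%, 42.2% and 40.7% of Rh3 plus Rh4 in controls and 45.6%, 45.2% and 46.0% in DHR39. Every DHR39 library was above every control, with means of 45.6% ± 0.372 and 42.0% ± 1.91. For comparison, the CPM of the groups did not overlap for 23.2% of tested single genes. The difference of 3.56 percentage points had a two-sided exact permutation p of 0.0536 over the 56 divisions of the libraries, and 0.107 adjusted over the 2 shares compared, so it did not pass. The smallest p this design allows is 0.0179. In all 3 pairs joined by name the DHR39 library had the higher share, by 5.72, 3.02 and 5.25 points. An exact two-sided test that flips the signs of these differences gave p = 0.25, the smallest that 3 pairs allow. Control replicate 1 lay nearest to the mutants, and without it the difference was 4.26 points (exact permutation p = 0.0286, the smallest that 4 against 3 allows). Without any of the other libraries the exact permutation p was 0.0571 to 0.0952.

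The corresponding share of Rh5 in Rh5 plus Rh6 was 85.6%, 86.1%, 92.0%, 91.6% and 86.3% in controls and 91.0%, 89.5% and 94.3% in DHR39. These groups overlapped, and control replicates 3 and 4 lay above the other controls. Means were 91.6% ± 2.46 in DHR39 and 88.3% ± 3.21 in controls, a difference of 3.32 points (two-sided exact permutation p = 0.179, the same after adjustment). Within pairs the difference was -0.991, -2.08 and 8.06 points, with no common direction.

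**Figure D2:**
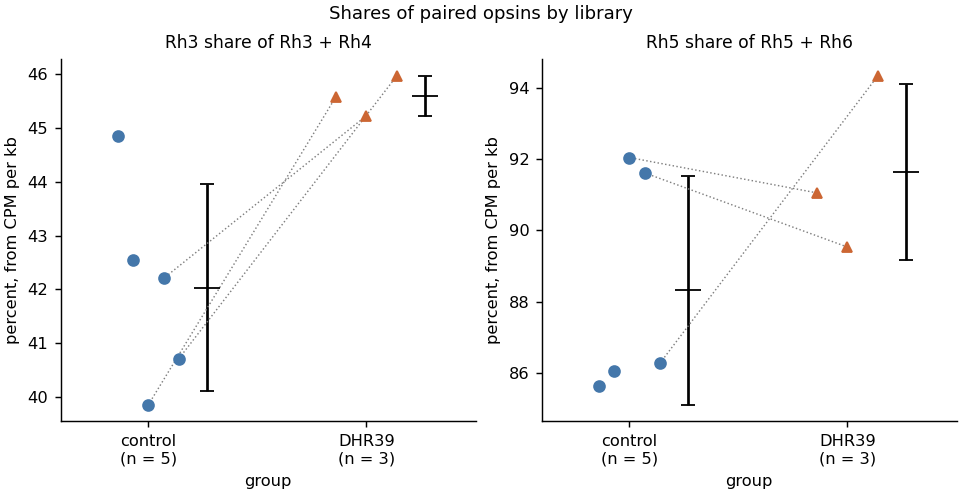
Share of Rh3 in Rh3 plus Rh4 (left) and of Rh5 in Rh5 plus Rh6 (right), in percent from CPM per kb, by library, with group mean and SD in black and dotted lines joining libraries of 1 replicate name. On the left all DHR39 points, from 45.2% to 46.0%, lie above the highest control at 44.8%, and on the right the groups overlap; the axes do not start at 0.

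Within either group the opsins kept a steep and stable order. Per kb of exon, ninaE made up 90.7% to 92.2% of the 5 opsins, Rh4 made up 3.65% to 4.04%, Rh3 made up 2.51% to 3.27%, Rh5 made up 1.40% to 2.08% and Rh6 made up 0.121% to 0.290%. Yellow ommatidia outnumber pale ones in the eyes of wild-type flies, as background. In R7 opsins the yellow form was the higher, with Rh4 above Rh3 per kb in 8 of 8 libraries. In R8 opsins the pale form was the higher, with Rh5 above Rh6 per kb in 8 of 8 libraries, by 5.96-fold to 16.7-fold (median 9.36). This held in controls and mutants alike.

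Downstream of the opsins, norpA (FBgn0262738, X from 4322626 to 4365408, plus strand) encodes the phospholipase C that the photoreceptor G protein activates. It is the longest of the 10 genes, with 8.30 kb of exon in 19 blocks, and CG12693 lies inside its span on the opposite strand without shared exons. It was at 339, 338, 278, 366 and 323 CPM in controls and 237, 382 and 307 CPM in DHR39. DHR39 replicate 1 lay below all controls and replicate 2 above all of them, so the mutants spread more widely than the controls. The log2 fold change was -0.091 ± 0.14 (edgeR adjusted p = 0.748), and it was 0.067 without DHR39 replicate 1 and -0.28 without DHR39 replicate 2. DHR39 replicate 1 also held the lowest value of 10 of 12 neuronal genes in general, whose summed level was 1239 CPM there and 1451 to 1744 CPM in the other libraries, and their part in the norpA value was not tested.

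The channel gene trp (FBgn0003861, 3R from 29914521 to 29920289, minus strand) encodes the main light-activated cation channel. It was at 394, 361, 298, 379 and 344 CPM in controls and 306, 400 and 336 CPM in DHR39, so DHR39 replicate 2 lay above every control and the other mutants inside the control range. Its log2 fold change was -0.032 ± 0.11 (edgeR adjusted p = 0.901), with a 95% interval from 0.823-fold to 1.162-fold.

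The scaffold gene inaD (FBgn0001263, 2R from 22855688 to 22858794, minus strand) encodes a PDZ domain protein that holds phospholipase C, the channel and protein kinase C in 1 complex. It shares 7 exonic bases, 0.300% of its exons, with RpL23 on the opposite strand, and the sources used here do not say whether reads were counted by strand. inaD was at 58.7, 71.1, 64.9, 61.2 and 76.3 CPM in controls and 64.8, 55.0 and 51.0 CPM in DHR39. DHR39 replicates 2 and 3 were below every control and replicate 1 was in the middle of them. The log2 fold change of -0.22 ± 0.11 (edgeR adjusted p = 0.230) had a 95% interval from 0.721-fold to 1.02-fold, and over the alternatives its adjusted p ran from 0.0998 to 0.664. With library totals alone the value was -0.077, closer to 0, on a scale where the median of all genes was 0.14.

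The arrestins, which end the opsin's signal, came next. Arr1 (FBgn0000120, 2L from 18078269 to 18081307, plus strand, on the arm that also holds Hr39) encodes the less abundant of the photoreceptor arrestins. Arr1 was at 1163, 1042, 1063, 1062 and 1070 CPM in controls and 1083, 1107 and 1058 CPM in DHR39. The mutants fell between the controls, and the log2 fold change was 0.0035 ± 0.076 (edgeR adjusted p = 0.984). Arr2 (FBgn0000121, 3L from 8647261 to 8648936, minus strand), whose product binds light-activated Rh1 and which lies inside the span of Pex7 without shared exons, was at 1549, 1394, 1444, 1509 and 1383 CPM in controls and 1402, 1488 and 1289 CPM in DHR39. DHR39 replicate 3 was below all controls for Arr2, as it was for ninaE. For Arr2 the log2 fold change was -0.064 ± 0.084 (edgeR adjusted p = 0.698). The within-group SD on the log2 scale was 0.054 for Arr1, 0.068 for Rh4, 0.078 for ninaE and 0.084 for Arr2, below the median of 0.14 over the 5655 tested genes whose mean log2 CPM reached 5.

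The authors' deposited table for DHR39 likewise has 0 of the 10 genes at an adjusted p under 0.05. In the authors' deposited table Rh5 has a log2 fold change of 0.20 (adjusted p = 0.234), inaD has -0.21 (0.219) and Rh6 has -0.25 (0.382). Since it shares libraries with the fit above, it is not independent of it.

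Compared per kb of exon over all 8 libraries, ninaE was highest at 2406 ± 122 CPM per kb (SD, n = 8), followed by Arr2 at 926 ± 53.6 and Arr1 at 437 ± 15.4. Each of these was clear of the next, with no overlap of ranges. Rh4 at 99.9 ± 4.88, trp at 84.9 ± 9.20 and Rh3 at 76.8 ± 8.26 CPM per kb formed a middle group in which neighbouring ranges overlapped. Rh5 at 43.9 ± 5.62, norpA at 38.7 ± 5.69 and inaD at 26.98 ± 3.55 came next, again with overlapping neighbours, and Rh6 at 5.14 ± 1.85 CPM per kb stood apart at the end. Arrestin RNA was thus far above channel and phospholipase RNA, while the Rh1 gene exceeded every other member in 8 of 8 libraries.

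Taking ninaE as the reference within each library removes the scale from the comparison, a measure chosen after the data were seen and given without a test. On the log2 scale Rh3 stood at -5.38 to -5.06 relative to ninaE in controls and at -5.09 to -4.98 in DHR39. Rh5 stood at -6.04 to -5.73 in controls and -5.75 to -5.45 in DHR39. Both pale opsins were thus mostly higher against ninaE in the mutants, but with overlap of the groups. For 0 of 9 members did the ratio separate the groups, against 19.7% of all tested genes. Arr1 relative to ninaE differed by 0.031 and trp by -0.0081 between the group means, the smallest differences of the 9.

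The 10 genes varied between libraries partly together, and norpA and trp also by replicate name. Control replicate 1 was the highest control for ninaE, Rh3, Rh4, Rh5, Rh6, trp, Arr1 and Arr2. Control replicate 3 and DHR39 replicate 1, which share a name, were both low for norpA and trp, and control replicate 4 and DHR39 replicate 2, which share another, were both high for these genes. The clock gene tim ran the same way, at 409 and 386 CPM in the first pair and 796 and 812 CPM in the second, against 597 and 641 CPM in the third and 607 and 497 CPM in control replicates 1 and 2. The part of time of day in the values of norpA and trp was not tested.

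**Figure D3:**
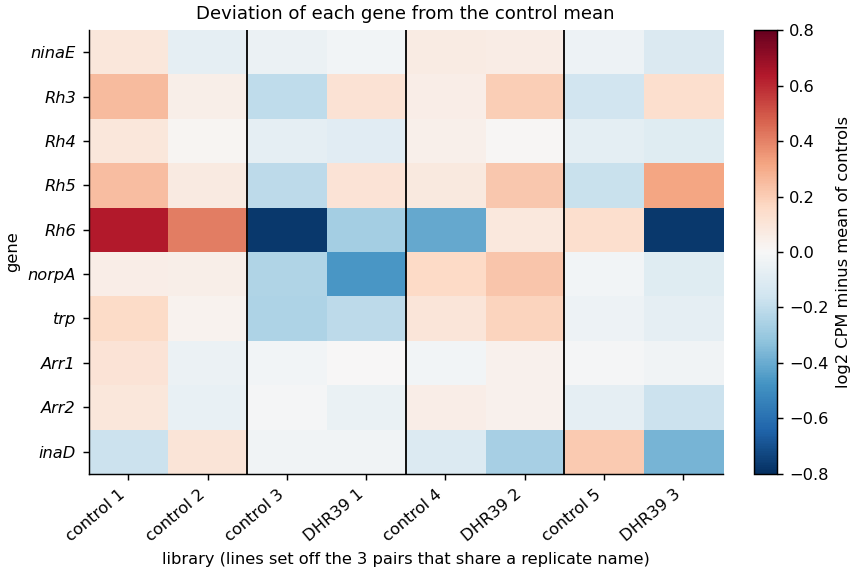
Each cell is a gene's log2 CPM in 1 library minus the mean of the 5 controls, with red above and blue below, and libraries of 1 replicate name set side by side between black lines. norpA, at -0.24 and -0.47 in control 3 and DHR39 1 and at 0.16 and 0.22 in control 4 and DHR39 2, moves with the pair more than with the genotype, and Rh6 has the widest swings.

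Of 9678 other genes whose mean log2 CPM reached 3, those whose log2 CPM most resembled the mean standardised profile of the 10 genes over the 8 libraries were CG5966 (Pearson r = 0.949), ERR (0.948), Ac76E (0.904), AstA-R2 (0.904) and CG32333 (0.897). For the 10 genes themselves the correlation with that profile is raised, since each of them is part of it. That correlation was highest for Rh4 (0.920), trp (0.900) and ninaE (0.845), and lowest for inaD (-0.19), so inaD ran apart from the rest. These values are descriptions over libraries that share pairs, and the best of many genes are high by selection. The top gene, CG5966, varied far more than any opsin but Rh6, from 55.0 to 153 CPM in controls and from 67.5 to 129 CPM in DHR39.

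Other genes of the pathway were taken from lists of known function. Of 17 further genes of light signalling, from the G protein to calcium handling, 1 fell, 0 rose and 16 did not pass, beside 10.7% of all tested genes called lower. Their median log2 fold change was -0.14, beside -0.0043 for all tested genes. With library totals alone it was 0.0058, beside 0.14 for all tested genes. The summed level of the 17 genes was 3278 to 3330 CPM in DHR39 and 3492 to 3945 CPM in controls. These ranges did not overlap, as for 23.2% of single genes. The gene that fell was Calx, a sodium and calcium exchanger that clears calcium from the rhabdomere, from 242 ± 7.64 to 202 ± 11.1 CPM, by 0.26 ± 0.077 on the log2 scale (edgeR adjusted p = 0.0363). Its call ended with library totals alone, at -0.12 (edgeR adjusted p = 0.299), with totals taken over all but the 50 most abundant genes (0.168), and without any of 6 of the 8 libraries: DHR39 replicate 1 (0.113), DHR39 replicate 2 (0.0664), DHR39 replicate 3 (0.100) and control replicates 1 (0.0731), 4 (0.0651) and 5 (0.0778). The most abundant uncalled genes of the list were the calcium sensor gene Cam, at -0.13 ± 0.087 (edgeR adjusted p = 0.360), and the G protein gamma subunit gene Ggamma30A, at -0.036 ± 0.080 (0.831).

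Some direct partners of the 10 gene products were chosen for their role, with their values known. Each of these stood below 0 in the main fit, as did 14 of the 17 genes of the list. Above 0 was, for example, the G protein beta subunit gene Gbeta76C, at 0.11 ± 0.096 (edgeR adjusted p = 0.547). Galphaq, the alpha subunit that links opsin to phospholipase C and shares 44.1% of its exons with CG45086 on the same strand, stood at -0.19 ± 0.094 (edgeR adjusted p = 0.214, and 0.0413 without DHR39 replicate 1). The second channel gene trpl stood at -0.26 ± 0.15 (0.318) and was at 672 CPM in control replicate 1 against 416 to 504 CPM in the other controls, without which replicate it was -0.12. The protein kinase C gene inaC stood at -0.26 ± 0.14 (0.243, and -0.12 without DHR39 replicate 2), and the rhabdomeric myosin gene ninaC at -0.25 ± 0.085 (0.0689). For ninaC the DHR39 libraries, at 340 to 377 CPM, were all below the controls, at 399 to 461 CPM, and the gene missed the edgeR threshold. DESeq2 called 2 of the 17 genes, Calx and ninaC, both lower, beside 1637 of the 13506 tested genes that it called lower. The adjusted p of ninaC was 0.0341 by DESeq2 and 0.00847 in the authors' deposited table.

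In the phosphoinositide cycle, which rebuilds the substrate of phospholipase C, 1 of 8 genes fell and 0 rose (median -0.026), beside 10.7% of all tested genes called lower. With library totals alone 0 fell and 2 rose, where 14.7% of all genes were called higher and the median of all genes was 0.14. CdsA, the CDP-diacylglycerol synthase of that cycle, fell from 206 ± 12.4 to 167 ± 10.1 CPM, by 0.30 ± 0.084 on the log2 scale (edgeR adjusted p = 0.0267). The CdsA call ended with library totals alone (0.220), with the 50 most abundant genes out of the totals (0.132), without DHR39 replicate 2 (0.0681), without DHR39 replicate 3 (0.149) and without control replicate 4 (0.0615). Of 4 genes of rhabdomere structure none was called by edgeR, DESeq2 or with the block, with 0 at an unadjusted p under 0.05. Chaoptin gene chp, the photoreceptor adhesion protein, stood at -0.16 ± 0.11 (edgeR adjusted p = 0.382, and -0.066 without DHR39 replicate 1) and crb at 0.099 ± 0.13 (0.696).

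**Figure D4:**
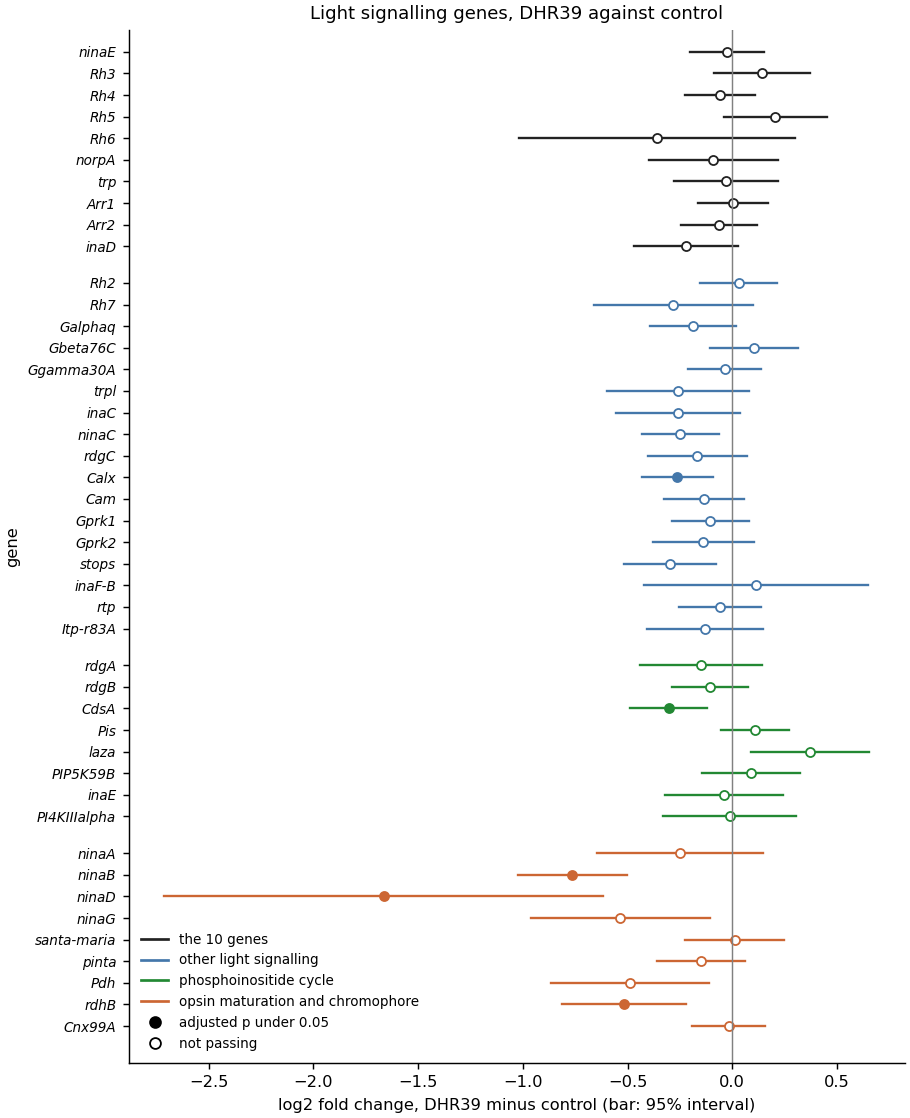
Log2 fold change (point) and 95% interval (bar) for the 10 genes and 3 further lists, with filled points for genes at an adjusted p under 0.05. The 10 genes, in black, all have open points and intervals across 0, while the chromophore list, in orange, holds 3 filled points to the left of 0.

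Opsins need a vitamin A derived chromophore. Of 9 tested genes of opsin maturation and chromophore supply, 3 fell, 0 rose and 6 did not pass, beside the 10.7% of all tested genes called lower. The median of the list was -0.49. With library totals alone 2 of the 9 fell, where 7.70% of all genes were called lower. ninaB, the enzyme that cleaves carotenoids to retinal, was at 21.6, 21.0, 17.6, 17.5 and 21.8 CPM in controls and 12.6, 10.9 and 11.7 CPM in DHR39, with no overlap. It fell by 0.76 ± 0.12 (edgeR adjusted p = 0.000787), and its adjusted p stayed under 0.05 in every alternative run, up to 0.00675. The scavenger receptor gene ninaD, needed for carotenoid uptake, fell by 1.66 ± 0.48 (edgeR adjusted p = 0.0324) and was at 9.98, 31.9, 59.8, 22.4 and 52.7 CPM in controls and 10.4, 7.96 and 15.2 CPM in DHR39. Control replicate 1 thus lay inside the mutant range, and the ninaD call ended with limma voom (0.0934) and without any DHR39 replicate (0.100, 0.128 and 0.0534 for replicates 1, 2 and 3) or without control replicate 3 (0.0569) or 5 (0.0669), while with the block it was -1.94 ± 0.17 (4.0e-05). ninaD lies on 2L with Hr39, and a part of linked sequence in its fall was not tested. The retinol dehydrogenase gene rdhB fell by 0.52 ± 0.14 (edgeR adjusted p = 0.0209), a call that ended with library totals alone (0.0743), with the 50 most abundant genes out of the totals (0.0531) and without DHR39 replicate 1 (0.0887) or 3 (0.0978).

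The abundant members of that list did not pass. The pigment cell dehydrogenase gene Pdh stood at -0.49 ± 0.17 (edgeR adjusted p = 0.0763, and 0.0225 with the block, 0.0291 with DESeq2 and 0.00489 without control replicate 4), and its antisense neighbour asRNA:CR45894 shares 37.6% of its exons on the opposite strand. The chaperone gene Cnx99A stood at -0.018 ± 0.080 (0.921).

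Other eye lists are given by their counts, beside 6.58% of all tested genes called higher and 10.7% called lower. Of 6 genes of histamine transmission, the photoreceptor's output, 2 fell and 0 rose: the dopamine and histamine conjugate hydrolase gene t, at -0.45 ± 0.12 (edgeR adjusted p = 0.0174), and the histidine decarboxylase gene Hdc, at -0.38 ± 0.11 (0.0275). Both calls ended with library totals alone (0.0811 and 0.135), with the 50 most abundant genes out of the totals (0.0529 and 0.0848) and without DHR39 replicate 2 (0.0746 and 0.123), that of t also without DHR39 replicate 3 (0.0550), and that of Hdc also without DHR39 replicate 1 (0.0888) and control replicate 5 (0.0624). Of 4 corneal lens genes 1 rose and 0 fell, Crys, a lens protein, from 8.31 ± 3.70 to 38.8 ± 7.31 CPM, by 2.22 ± 0.28 (edgeR adjusted p = 0.000170). Crys also lies on 2L with Hr39. A part of linked sequence in the rise of Crys was not tested. Of 14 tested eye pigment genes 1 fell and 0 rose, the pigment transporter gene st, by 0.65 ± 0.11 (edgeR adjusted p = 0.00175).

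**Figure D5:**
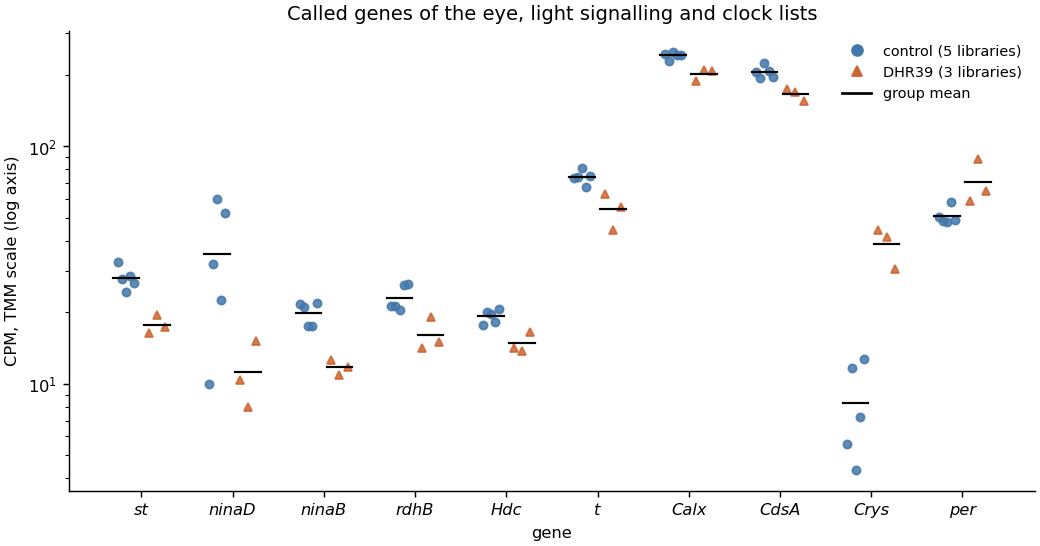
CPM on a log axis for the called genes outside the 10, control libraries as circles, DHR39 libraries as triangles, group means as black bars. For ninaD the lowest control, at 9.98 CPM, lies among the mutants, and for Crys all 3 mutants, at 30.5 to 44.3 CPM, lie above all controls, at 4.34 to 12.7 CPM.

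The lists below stand beside all 13506 tested genes, of which edgeR called 6.58% higher and 10.7% lower. An unadjusted edgeR p under 0.05 was found for 28.3%. The block called 7.90% higher and 11.2% lower, and DESeq2 called 1040 genes higher and 1637 lower. Of 12 transcription factors and signalling genes that set photoreceptor identity, 0 were called by edgeR and by DESeq2. None had an unadjusted p under 0.05, and 1 was called lower with the block. Of 12 neuronal genes in general 0 were called by edgeR, DESeq2 or with the block, with 1 at an unadjusted p under 0.05. Their median was -0.18, and the most abundant, Syt1 and nSyb, stood at -0.18 ± 0.10 (edgeR adjusted p = 0.285, and -0.088 without DHR39 replicate 1) and -0.075 ± 0.081 (0.625). Of 6 glial genes 0 were called by edgeR, with 4 at an unadjusted p under 0.05, while DESeq2 called 1 higher and 0 lower and the block 1 higher and 1 lower. Their summed level was 1499 to 1574 CPM in DHR39 and 1669 to 1775 CPM in controls, with no overlap, as for 23.2% of single genes. The part of glial RNA in the values above was not tested. Of 8 clock genes 1 rose and 0 fell, per, by 0.48 ± 0.13 (edgeR adjusted p = 0.0237), a call that ended without DHR39 replicate 2 (at 0.28, adjusted p = 0.131) and without control replicate 5 (0.0534), while tim stood at 0.077 ± 0.23 (0.880) and Pdp1 at -0.20 ± 0.18 (0.539, and 0.0472 with the block). The female yolk protein genes Yp1, Yp2 and Yp3 together were at 8.86 to 16.8 CPM in all libraries, 0 of 3 were called by edgeR or DESeq2, and 0 had an unadjusted p under 0.05.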

How the data were processed

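The values used are raw counts per gene from the authors' deposited table. The submitters' processing notes name STAR 2.6.1b, cutadapt 1.16, DESeq2 (1.20.0, 1.22.2) and featureCounts 1.6.3, and the builds BDGP6 and dm6. The deposited comparison tables hold log2 fold changes and adjusted p-values by the authors. Of these, the one whose fold changes follow the libraries used here (r = 0.920 over genes) was taken as the DHR39 table, rather than the one named for it (0.266).

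Genes were kept by filterByExpr of edgeR 4.0.16 at its defaults (R 4.3.3), scaled by TMM, and tested two-sided with the quasi-likelihood test, with Benjamini-Hochberg adjustment over 13506 genes (biological coefficient of variation 14.9%). The fit was tested on simulated data. SE is the size of a change over the square root of F. Positions, exon lengths and overlaps come from Ensembl release 115 of BDGP6. CPM divide counts by the TMM-scaled total, and log2 ratios to ninaE and profile similarity use a pseudocount of 0.5 CPM, which spreads and deviations do not. Alternatives were DESeq2 1.42.0, limma 3.58.1 voom, other scalings, no filter, leaving out each library, and a replicate block.

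Members, lists and tests were chosen with earlier results of these data known. Named genes are all members, Hr39, the called genes of each list (at most the 4 of smallest p), the 2 most abundant uncalled genes of 5 lists, and the 5 genes of most similar profile. Galphaq, trpl, inaC, ninaC, Gbeta76C and w were added for their role after their values were seen. Replicate numbers follow accession order. The pairing comes from replicate names in the sample sheet, which 3 controls share with the 3 DHR39 libraries. Control replicates 1 and 2 share no name with a mutant, so with the block they do not inform the difference. Deviations from group means correlated across genes, which are not independent, at 0.215, 0.108 and 0.183 within pairs, so the block was accepted as pairing, narrowly, since DHR39 replicate 1 with control replicate 2 reached 0.101.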

Additional observations from a re-analysis of the deposited data

Results flagged for a closer look

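Of 37 named results looked at over the 5 controls, 4 had a library far from the others (a gap over 0.710 of the group's range), where chance gives about 1 in 20. Arr1 was at 1163 CPM in control replicate 1 and at 1042 to 1070 CPM in the other controls. The other 3 were in control replicate 4. Pdh was at 159.8 CPM there and at 260.1 to 278 CPM in the other controls, inaC at 72.9 CPM against 96.3 to 99.8 CPM, and per at 58.3 CPM against 47.9 to 50.4 CPM. DHR39 replicate 2, which has the same replicate name, was the lowest mutant for Pdh, at 144.5 CPM, and for inaC, at 62.6 CPM, and the highest for per, at 88.6 CPM. The cause was not tested.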

How the results depend on the processing

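The count of members called was 0 in the main fit, 1 with library totals alone and 1 with the replicate block, Rh5 in both. It was 0 with every library left out in turn, with DESeq2, voom, RLE factors, no filter on low counts and totals without the 50 most abundant genes. Further light signalling genes called were 1 in the main fit, 2 with DESeq2, 0 with library totals alone, 0 without the 50 most abundant genes, and 0 to 1 when a library was left out. Over all genes, leaving out a library gave 1566 to 2340 calls beside 2333, of which 889 were higher and 1444 lower. With library totals alone, 1992 were higher and 1040 lower, and the median of all genes was 0.14 on the log2 scale, against 0.091 without the 50 most abundant genes.

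These log2 fold changes changed sign. With library totals alone, ninaE was 0.12, Rh4 0.085, norpA 0.050, trp 0.11, Arr2 0.081, Cam 0.011, Ggamma30A 0.11, Cnx99A 0.13 and nSyb 0.068. Without the 50 most abundant genes, ninaE was 0.070, Rh4 0.037, norpA 0.0026, trp 0.064, Arr2 0.033, Ggamma30A 0.059, Cnx99A 0.078 and nSyb 0.020. With the block, Rh6 was 0.039 and trp 0.028. Left-out libraries moved ninaE from -0.069 to 0.017, norpA from -0.28 to 0.067, trp from -0.15 to 0.052, Arr1 from -0.013 to 0.032, Cnx99A from -0.059 to 0.012, crb from -0.021 to 0.24 and tim from -0.18 to 0.32. The cause was not tested.

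The Rh3 share difference ran from 3.01 to 4.26 points with a library left out (exact permutation p from 0.0286 to 0.0952), and that of Rh5 from 1.97 to 4.37 points. With the block they were 4.66 and 1.66 points. Among named genes the block changed the calls of Rh5, Pdh and Pdp1 and no other. Rh6 had the fewest reads of the members, 73 to 200 per library.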
